A study of Mus musculus with 37 samples.

Results

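Gab1, Sfmbt2, Smoc1, Jade1, Slc38a4, Bbx, Epas1, Enc1 and Rbms1 are mouse genes described as imprinted through histone H3 lysine 27 trimethylation (H3K27me3) inherited from the oocyte. They were taken by symbol from the deposited tables of expression values, and all 9 were found among the 55401 genes listed. The 26 total RNA libraries came from 2 germ cell stages, the fully grown oocyte (FGO) and the MII egg (MII), and from embryos at the late 1-cell (L1C), early 2-cell (E2C) and late 2-cell (L2C) stages. Each of these stages had 2 control and 3 knockout libraries, except E2C with 3 of each. The 11 poly(A) libraries covered epiblast (EPI), visceral endoderm (VE) and extraembryonic ectoderm (EXE) of embryonic day 6.5, with 2 control and 2 knockout libraries each, except EXE with 1 control. Control females carried Bap1 flox/flox alleles. Knockout females carried the same alleles with Gdf9-iCre, a recombinase expressed in growing oocytes, so that Bap1 was lost in the oocyte and not in the male. The early embryos were sired by B6 males and those of embryonic day 6.5 by PWK males, and the knockout embryos were therefore maternal knockouts with an intact paternal Bap1 allele. Ages of the mice, and the number of oocytes or embryos behind a library, are not given in the sources used here. Nothing in the labels says that replicates came from separate females, so p-values measure the spread between these samples, which may be technical.

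In classical imprinting, DNA methylation laid down in a germ line silences 1 parental copy of a gene. At noncanonical imprinted genes the maternal copy is instead covered in the oocyte by H3K27me3, the mark written by the EZH2, EED and SUZ12 subunits of Polycomb repressive complex 2, and the embryo expresses mainly the paternal copy. At most of these genes the bias fades around implantation, and at a few of them (Gab1, Sfmbt2, Smoc1, Jade1 and Slc38a4) it is known to persist in extraembryonic tissue, where DNA methylation takes over on the maternal copy. BAP1 is the catalytic subunit of the complex that removes ubiquitin from histone H2A, a mark placed by Polycomb repressive complex 1 and coupled to H3K27me3. The comparison of controls with knockouts asks how the transcripts of these genes behave when the oocyte lacked BAP1. The deposited values add both parental copies together, so no value below says which copy a transcript came from, and imprinting itself was not measured.

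RefSeq promoter windows (GRCm38.p6) were given for 5 of the 9 genes. The 250 bases before the outermost start are shown for the member that differed most in the L2C knockout (Gab1), for the one with the opposite sign there (Jade1) and for a pair with high levels in EXE (Sfmbt2, Slc38a4), since these promoters differ widely in CG content. Each is written 5′ to 3′ on the gene's strand with CG dinucleotides, the sites that DNA methylation uses, in capitals.
Gab1, minus strand, chr8:80880520-80880769: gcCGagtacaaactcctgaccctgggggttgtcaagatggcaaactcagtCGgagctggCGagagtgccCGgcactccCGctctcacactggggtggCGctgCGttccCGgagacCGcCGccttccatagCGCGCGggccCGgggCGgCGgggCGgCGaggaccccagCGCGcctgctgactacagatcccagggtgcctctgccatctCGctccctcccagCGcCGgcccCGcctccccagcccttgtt
Jade1, plus strand, chr3:41555484-41555733: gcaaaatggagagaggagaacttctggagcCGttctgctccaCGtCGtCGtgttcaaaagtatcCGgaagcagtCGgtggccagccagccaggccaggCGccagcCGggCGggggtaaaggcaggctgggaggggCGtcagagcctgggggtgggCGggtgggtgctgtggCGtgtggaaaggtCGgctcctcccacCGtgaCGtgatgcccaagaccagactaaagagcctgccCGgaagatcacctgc
Sfmbt2, plus strand, chr2:10370201-10370450: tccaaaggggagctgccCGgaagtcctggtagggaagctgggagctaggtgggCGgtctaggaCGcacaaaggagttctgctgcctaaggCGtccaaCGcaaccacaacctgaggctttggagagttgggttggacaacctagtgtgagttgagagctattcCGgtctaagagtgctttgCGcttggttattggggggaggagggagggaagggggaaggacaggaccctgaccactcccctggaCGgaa
Slc38a4, minus strand, chr15:97055957-97056206: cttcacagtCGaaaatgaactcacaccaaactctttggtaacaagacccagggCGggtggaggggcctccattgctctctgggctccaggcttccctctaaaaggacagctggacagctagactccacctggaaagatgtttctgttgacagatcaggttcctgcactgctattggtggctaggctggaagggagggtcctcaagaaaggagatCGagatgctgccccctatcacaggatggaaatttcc
The Gab1 stretch held 24 CG dinucleotides, the Jade1 stretch 16, the Sfmbt2 stretch 8 and the Slc38a4 stretch 3. Among 32851 stretches of the same kind, 92.1% held at least 1 CG, which reads the same on both strands, and the median number was 6. The share of stretches with fewer CG was 88.0% for Gab1, 74.6% for Jade1, 57.0% for Sfmbt2 and 29.0% for Slc38a4. The CG-rich Gab1 promoter and the CG-poor Slc38a4 promoter belong to genes that were both abundant in EXE. Rbms1, on the minus strand, held 19 CG in the same stretch, and 80.3% of stretches held fewer. These counts are for the outermost start alone, and the genes also had windows at other starts. In windows of 300 bases, another Rbms1 start held 49 CG and another Jade1 start 38, against 26 and 28 at the starts of Gab1.

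Expression is given in FPKM, the authors' fragment density per kilobase of transcript after scaling for library size, and the number of reads behind a value is unknown. Library sums ran from 300668 to 430784 FPKM for total RNA and from 593705 to 704522 FPKM for poly(A). Bap1 checked the genotype labels: it was lower in every knockout library than in every control library at the 5 early stages, with means of 22.8 ± 9.12 (SD, n = 2) against 4.41 ± 0.615 FPKM (SD, n = 3) in FGO and 22.7 ± 2.44 (SD, n = 2) against 10.5 ± 1.09 FPKM (SD, n = 3) in L2C. It cannot check the embryonic day 6.5 labels, since the paternal allele is intact there. In bulk libraries, fewer cells of a type and less RNA per cell cannot be told apart. The tissue labels held against their markers: Elf5 lay between 134.5 and 183.8 FPKM in EXE libraries and was at most 0.381 FPKM in EPI and VE, while Ttr was at least 608.6 FPKM in VE and at most 1.59 FPKM in the other lineages. Pou5f1, an epiblast gene, was at least 273.99 FPKM in EPI and at most 0.213 FPKM in VE, and ranged from 0.127 to 20.5 FPKM in EXE.

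Bbx, an HMG-box protein, was lower in knockouts than in controls at each of the 5 early stages. It lies on chromosome 16, 50191844 to 50432390, minus strand, with 14205 exonic bases, and gene positions here follow GENCODE M21 on GRCm38. In FGO it measured 1.61 and 1.82 FPKM in controls and 0.589, 0.708 and 0.497 FPKM in knockouts. In MII it measured 2.21 and 1.599 FPKM in controls and 0.550, 0.611 and 0.650 FPKM in knockouts. In L1C it measured 3.40 and 2.42 FPKM in controls and 0.741, 0.731 and 0.862 FPKM in knockouts. Oocyte, egg and zygote thus showed the same separation, every knockout library below 1 FPKM and every control library above it. In E2C the controls measured 1.93, 2.099 and 2.18 FPKM and the knockouts 1.19, 0.987 and 1.17 FPKM. In L2C the controls measured 1.96 and 2.44 FPKM and the knockouts 0.944, 1.14 and 1.25 FPKM. No knockout library reached a control library of its stage, and among 15184 genes 2.86% were lower without overlap at all 5 stages.

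On the log2(FPKM + 1) scale, which understates changes of low genes, Bbx fell by 0.77 ± 0.13 (SE) in FGO, by 0.85 ± 0.15 (SE) in MII and by 1.13 ± 0.17 (SE) in L1C. These changes passed limma's test with Benjamini-Hochberg adjustment over all genes (adjusted p = 0.0187, 0.0147 and 0.00628). A gene was tested where at least 2 libraries of the fit reached 1 FPKM, and Bbx reached it at these stages through its controls alone. Without that filter the adjusted p from limma was 0.0762, 0.0628 and 0.0502, and leaving out either control library of these stages took Bbx below the filter. Bbx was the 1 gene of the 9 that could be tested in FGO, MII and L1C, where 8.34%, 12% and 14.9% of all genes tested passed. In E2C its difference was -0.54 ± 0.21 (SE) with an adjusted p of 0.134 from limma, and in L2C it was -0.60 ± 0.22 (SE) with an adjusted p of 0.0644. Those differences passed when 1 limma model was fitted to all 26 total RNA libraries (adjusted p = 0.00253 and 0.00153), a fit that assumes the same spread at every stage. The median SD within groups over all genes was 0.26 log2 units in E2C and 0.202 in L2C, against 0.116 to 0.134 at the other stages.

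In controls Bbx did not change past the threshold between consecutive stages, with differences from -0.34 to 0.42 log2 units. The knockout effect on Bbx did not change past the threshold from one stage to the next either. Among all genes, 0% changed their knockout effect from FGO to MII by limma's test (1080 of 12016 at an unadjusted p under 0.05), 0.0508% from MII to L1C and 0.337% from L1C to E2C. A list of 7 granulosa or cumulus cell genes moved with genotype beside Bbx: its summed level was 6.80 to 7.82 FPKM in control and 2.25 to 2.62 FPKM in knockout FGO, and 9.52 to 10.8 FPKM in control and 2.36 to 2.93 FPKM in knockout L2C. In FGO, MII, L1C and E2C the 1 gene of that list that reached 1 FPKM was Cyp19a1, the aromatase gene, and in L2C it was Amhr2. Inha, a granulosa gene, was at 0 in every MII, L1C, E2C and L2C library. Follicle cell carry-over as a part of the Bbx result was not tested.

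**Figure D1:**
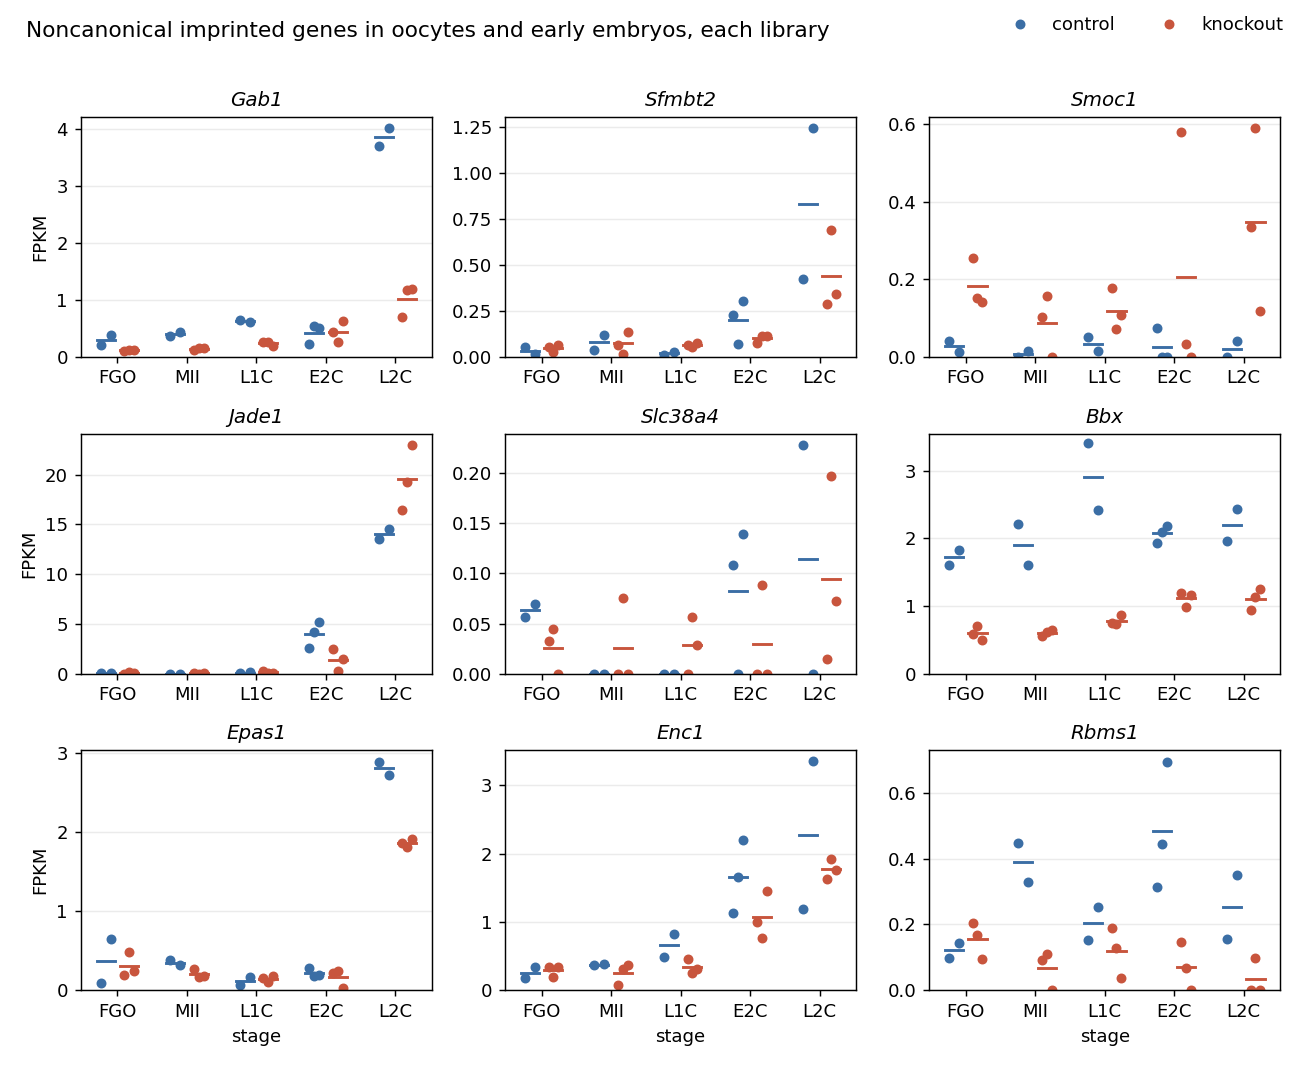
Level of each gene in every total RNA library in FPKM, on an axis of its own that starts at 0, by stage from FGO to L2C; points are libraries, short lines are group means, controls are blue and knockouts red. Bbx is lower in knockouts at all 5 stages, Gab1 is between 3.70 and 4.01 FPKM in control L2C and between 0.697 and 1.18 FPKM in knockout L2C, and Jade1 is at most 0.217 FPKM before the 2-cell stages.

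Gab1 encodes a docking protein that carries signals from receptor tyrosine kinases, and the embryo needs it for its placenta. It lies on chromosome 8, 80764438 to 80880519, minus strand. It was scarce until E2C, at most 0.640 FPKM in any library, and measured 3.70 and 4.01 FPKM in control L2C. The step from E2C to L2C in controls was 1.78 ± 0.22 (SE) log2 units (adjusted p = 2.89e-05, limma with Benjamini-Hochberg adjustment). Gab1 entered that test through its L2C libraries alone. In the 12 alternative fits, no filter among them, the adjusted p from limma was at most 0.0204. In control L2C the level was thus higher than in control E2C with and without the filter. In knockout L2C it measured 0.697, 1.18 and 1.18 FPKM. The late rise was thus smaller in knockouts, where the highest library stood at less than the lowest control library. Of the genes tested in L2C, 30.6% were lower without overlap. Gab1 fell by 1.27 ± 0.23 (SE) on the log2 scale in knockout L2C, with means of 3.86 ± 0.217 FPKM (SD, n = 2) in controls and 1.02 ± 0.280 FPKM (SD, n = 3) in knockouts and an adjusted p of 0.00358 from limma. The call held in the 13 alternative fits that gave a value, with an adjusted p of at most 0.0355.

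The knockout effect on Gab1 differed between E2C and L2C. In E2C the controls measured 0.219, 0.542 and 0.500 FPKM and the knockouts 0.441, 0.254 and 0.632 FPKM, so that the groups overlapped. The change of the effect from E2C to L2C was -1.30 ± 0.30 (SE) log2 units with an adjusted p of 0.0117 from limma, in a test that 16.7% of all genes passed. Every E2C library was below 1 FPKM, so Gab1 entered this test through its L2C libraries alone. Without the filter the adjusted p from limma was 0.0321. Below 1 FPKM, the earlier stages also showed lower values in knockouts. Gab1 measured 0.216 and 0.381 FPKM in control and 0.107 to 0.119 FPKM in knockout FGO, and 0.364 and 0.431 FPKM in control and 0.125 to 0.158 FPKM in knockout MII. In L1C the controls measured 0.640 and 0.605 FPKM and the knockouts 0.185 to 0.266 FPKM. These groups did not overlap, as was the case, in the same direction, for 25.9% of the genes tested in FGO, 22.9% in MII and 23.3% in L1C. The levels were below the filter, and without it the adjusted p from limma was 0.201 in FGO, 0.0525 in MII and 0.104 in L1C.

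Jade1 encodes a PHD-finger scaffold of the HBO1 histone acetyltransferase complex and lies on chromosome 3, 41555731 to 41616864, plus strand. It was at most 0.217 FPKM in FGO, MII and L1C and appeared in 2-cell embryos. E2C controls measured 2.54, 4.15 and 5.21 FPKM and L2C controls 13.6 and 14.5 FPKM. Both steps passed limma's test in controls, with 2.14 ± 0.37 (SE) log2 units from L1C to E2C (adjusted p = 0.000533) and 1.64 ± 0.36 (SE) from E2C to L2C (adjusted p = 0.00212). Both calls were lost under the replicate block (adjusted p = 0.0538 and 0.107, limma). Jade1 entered the test from L1C to E2C through its E2C libraries alone, and passed there with no filter as well. From L1C to E2C 48.8% of all genes passed, from E2C to L2C 54.6%, from MII to L1C 27.7% and from FGO to MII 4.22%.

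The order of genotypes for Jade1 differed between E2C and L2C. E2C knockouts measured 2.43, 0.249 and 1.51 FPKM, all below the controls, although the highest knockout was close to the lowest control. L2C knockouts measured 16.5, 19.3 and 23.0 FPKM, all above the controls. Of the genes tested, 16.3% were lower without overlap in E2C and 31.6% higher without overlap in L2C. The difference was -1.13 ± 0.38 (SE) log2 units in E2C (adjusted p = 0.0944, limma) and 0.44 ± 0.16 (SE) in L2C (adjusted p = 0.0552, limma), and neither passed the threshold. The change of the knockout effect between these stages did pass, at 1.57 ± 0.48 (SE) log2 units and an adjusted p of 0.0444 from limma. It passed in 5 of 19 alternative fits, with an adjusted p of up to 0.144, and was lost among others without either L2C control library (adjusted p = 0.133 and 0.115). A list of 5 genes chosen as late 2-cell markers summed to 197.3 to 275.5 FPKM in control and 88.4 to 182.5 FPKM in knockout E2C. In L2C it summed to 95.02 to 101.5 FPKM in controls and 295.03 to 357.9 FPKM in knockouts. The list thus had the order of genotypes that Jade1 had at both stages. In controls, however, its sum was lower in L2C than in E2C, whereas Jade1 rose. A list of 5 oocyte genes summed to 445.2 to 467.6 FPKM in control and 731.4 to 857.5 FPKM in knockout L2C. A difference in embryonic stage between genotypes as a part of the Jade1 and Gab1 results was not tested.

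Epas1 encodes the hypoxia-inducible transcription factor subunit HIF-2 alpha and lies on chromosome 17, 86753700 to 86833410, plus strand. It was at most 0.652 FPKM until E2C and rose in control L2C by 1.65 ± 0.19 (SE) log2 units (adjusted p = 1.63e-05, limma). L2C controls measured 2.89 and 2.73 FPKM and knockouts 1.86, 1.81 and 1.92 FPKM. The groups did not overlap, as was the case, in the same direction, for 30.6% of the genes tested in L2C. The difference of -0.41 ± 0.20 (SE) log2 units had an adjusted p of 0.141 from limma, or 0.0298 in the single model of all 26 libraries. Gab1, Jade1 and Epas1 were the members that rose from E2C to L2C in controls, among 5 tested. Gab1 and Epas1 were tested only because L2C libraries reached 1 FPKM, so this count rests in part on the filter. Each of these 2 genes passed in all 12 alternative fits, no filter among them.

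Enc1, a kelch-domain protein that links substrates to cullin ubiquitin ligases, lies on chromosome 13, 97241105 to 97253034, plus strand. It measured 0.490 and 0.819 FPKM in control L1C and 1.13, 1.65 and 2.19 FPKM in control E2C, a difference of 0.67 ± 0.23 (SE) log2 units (adjusted p = 0.0304, limma). Every L1C library was below 1 FPKM, so the gene entered this test through its E2C libraries alone, and without the filter the adjusted p was 0.0771. The call was also lost with TPM scaling (adjusted p = 0.0552, limma), with the replicate block (0.165), and without either L1C control or E2C control 2 or 3 (up to 0.207). In L2C its controls measured 1.19 and 3.35 FPKM and its knockouts 1.63, 1.92 and 1.76 FPKM. The knockouts lay between the 2 controls, with a difference of -0.16 ± 0.31 (SE) log2 units (adjusted p = 0.714, limma).

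The other 4 genes were scarce in the early libraries and were not tested there. Sfmbt2 encodes a Polycomb-group protein with MBT repeats that the trophoblast needs (chromosome 2, 10370510 to 10595253, plus strand), and reached at most 1.24 FPKM. Smoc1 encodes a secreted calcium-binding matrix protein (chromosome 12, 81026808 to 81186414, plus strand) and reached at most 0.590 FPKM. Slc38a4, an amino acid transporter (chromosome 15, 96994820 to 97055956, minus strand), and Rbms1, a protein that binds single-stranded nucleic acids (chromosome 2, 60750193 to 60963192, minus strand), reached at most 0.228 and 0.694 FPKM. Rbms1 was listed lower in knockouts without overlap in MII, E2C and L2C, and its groups overlapped in FGO and L1C. Of the genes tested, 22.9% in MII and 30.6% in L2C were also lower without overlap. In E2C, where 16.3% of the genes tested were lower without overlap, Rbms1 had controls at 0.314, 0.445 and 0.694 FPKM and knockouts at 0.146, 0.0677 and 0 FPKM. Smoc1 was listed higher in knockouts without overlap in FGO, L1C and L2C, and its groups overlapped in MII and E2C. Of the genes tested, 20.5% in FGO and 26.3% in L1C were also higher without overlap. In L2C, where 31.6% of the genes tested were higher without overlap, Smoc1 had controls at 0 and 0.0404 FPKM and knockouts at 0.335, 0.590 and 0.119 FPKM. At these levels the number of reads behind a value is unknown, and no fold is given.

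Over the 9 genes, the number that passed the knockout test was 1 of 1 tested in FGO, MII and L1C, 0 of 3 in E2C and 1 of 5 in L2C, all lower. The 1 gene tested in FGO, MII and L1C was Bbx, which entered through its controls and was not called there without the filter. The E2C count of 0 stands beside 2 genes at an unadjusted p under 0.05 in limma. Among all genes tested, 8.34% passed in FGO, 12% in MII, 14.9% in L1C, 10.1% in E2C and 38.5% in L2C. In L2C the median difference of the 5 tested members was -0.41 log2 units and that of all genes 0.03. Of 23 classical imprinted genes, 13 were tested in L2C, where 3 were higher and 3 lower with a median of -0.03.

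**Figure D2:**
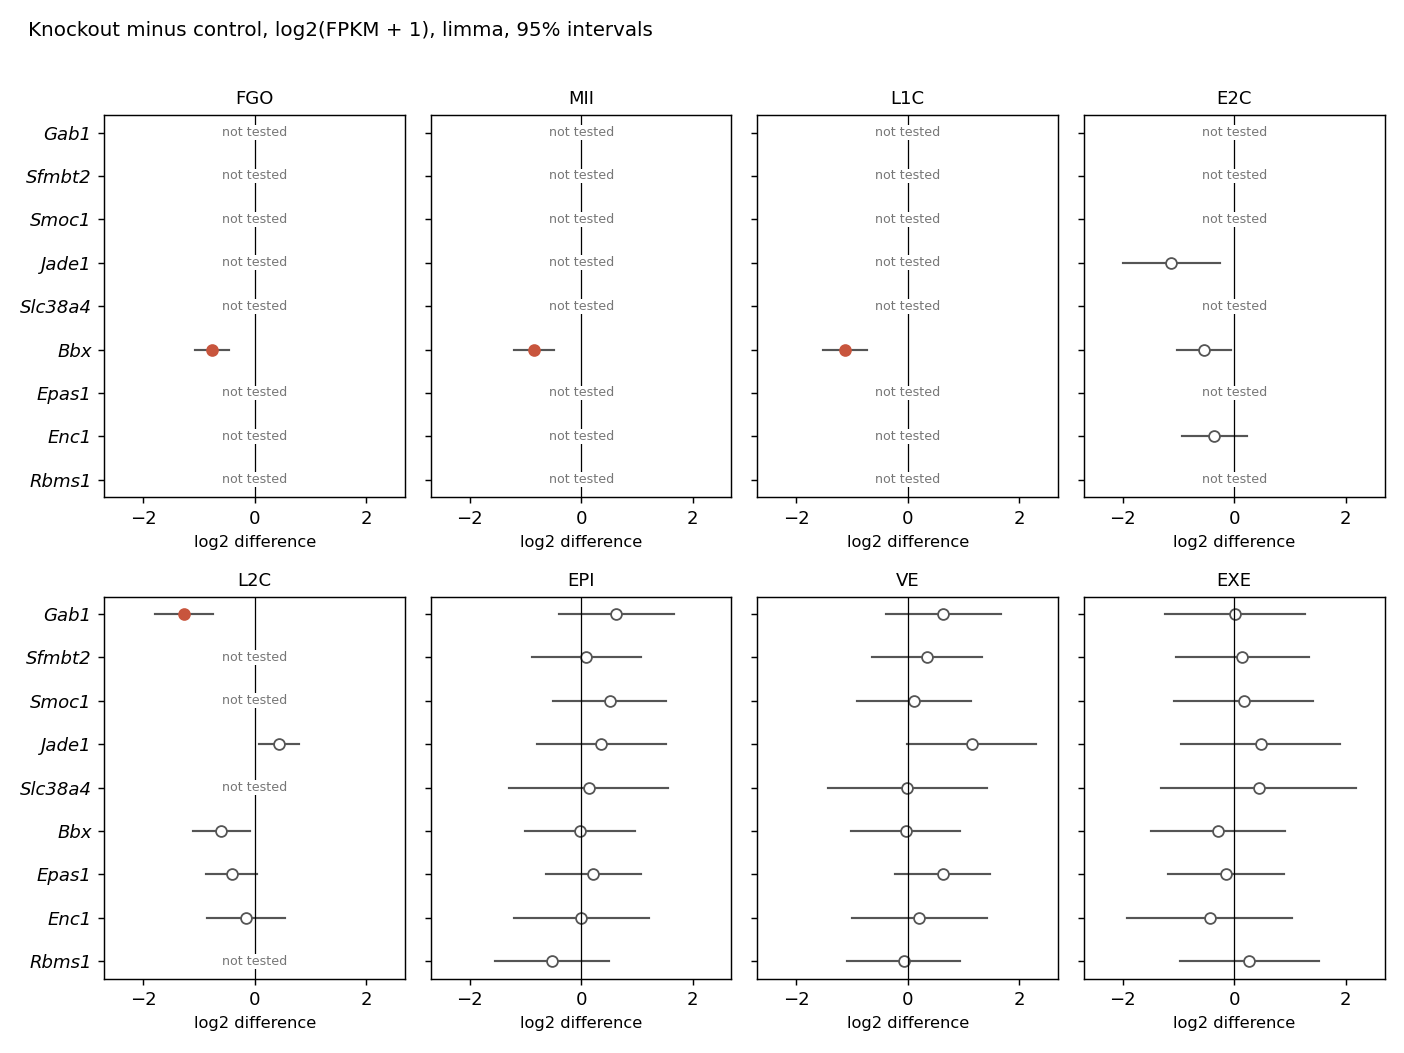
Knockout minus control on the log2(FPKM + 1) scale for each gene and stage or lineage; circles are limma estimates, bars 95% intervals, filled circles passed at an adjusted p of 0.05, and genes below the filter are marked as not tested. Bbx passes in FGO, MII and L1C and Gab1 in L2C, while all 9 intervals in VE and EXE and in EPI include 0.

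Transcripts of some enzymes behind the marks differed in L2C, where 38.5% of all genes tested passed. Of 17 regulators (Polycomb subunits, H3K27 demethylases, DNA methyltransferases and related genes), 16 were tested in L2C, where 7 were higher and 1, Bap1 itself, lower. Ezh2 rose from a mean of 75.6 to 133.5 FPKM (adjusted p = 0.000796), Eed from 30.2 to 61.8 FPKM (adjusted p = 0.00406) and Suz12 from 238.04 to 288.8 FPKM (adjusted p = 0.0310) by limma's test. The 3 core subunits of Polycomb repressive complex 2 were thus all higher in knockout L2C. The H3K27 demethylases Kdm6a (28.9 to 40.2 FPKM) and Kdm6b (37.1 to 68.8 FPKM) were also higher there without overlap. Rnf2, a Polycomb subunit, was lower without overlap (63.8 to 57.1 FPKM) but was not called. In L2C 31.6% of the genes tested were higher and 30.6% lower without overlap. Kdm6a had the opposite order in FGO, MII, L1C and E2C, where it was lower in knockouts without overlap. Its means were 50.1 and 43.2 FPKM in control and knockout FGO, and 76.5 and 57.3 FPKM in control and knockout E2C. Of the genes tested, 25.9%, 22.9%, 23.3% and 16.3% were lower without overlap at these stages. A link of these transcripts to Gab1 was not tested. Dnmt3a, a de novo DNA methyltransferase, was higher in knockouts in FGO (59.3 to 94.8 FPKM, adjusted p = 0.0195), in L1C (73.5 to 105.3 FPKM, adjusted p = 0.00615), in E2C (40.2 to 80.5 FPKM, adjusted p = 0.0224) and in L2C (12.9 to 31.2 FPKM, adjusted p = 0.00517) by limma's test. In MII its groups overlapped, with means of 62.4 FPKM in controls and 57.8 FPKM in knockouts (adjusted p = 0.708, limma). In controls Dnmt3a and Ezh2 fell by 1.61 and 1.41 log2 units from E2C to L2C (adjusted p = 0.000262 and 3.61e-06, limma). Of the same 17 genes, 0 passed in EPI, VE or EXE by limma's test, with 1, 1 and 0 at an unadjusted p under 0.05.

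Genes next to the members were examined as a local control, taking the nearest coding gene on each side in the tables. Of these 18 neighbours, 7 were tested in L2C. Smarca5, 24941 bases from Gab1, fell by 0.46 ± 0.12 (SE) log2 units (adjusted p = 0.0156, limma), in the direction of Gab1 and by less. Sclt1, 9856 bases from Jade1, rose by 0.67 ± 0.13 (SE) log2 units (adjusted p = 0.00445, limma), the sign that Jade1 had there. Tank, next to Rbms1, fell by 0.38 ± 0.11 (SE) log2 units (adjusted p = 0.0302, limma). Tank was also lower in FGO, MII, L1C and E2C, but lies 615393 bases from Rbms1. The neighbours of Bbx, Cd47 and Ccdc54, were below the filter at the early stages, so that no local comparison was possible for Bbx there.

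At embryonic day 6.5 the 9 genes differed between lineages, and no difference between genotypes was called. Sfmbt2, Gab1, Slc38a4, Rbms1 and Smoc1 were higher in EXE than in EPI, and Enc1 was lower. In limma's test on the mean of both genotypes, 6 of 9 genes passed between EXE and EPI, 5 of 9 between EXE and VE, and 7 of 9 between EPI and VE. Among all 13914 genes tested, 19.6%, 22.6% and 38.4% passed in the same order. Epas1 reached 1 FPKM in VE libraries alone, and Sfmbt2 in VE and EXE libraries alone. Both thus entered the fit through lineages where they were high, and their calls held with no filter. The median difference of the 9 between EXE and EPI was 1.59 log2 units and that of all genes -0.03. The labels do not say whether lineages of the same genotype and number came from the same embryos. The fit treated all libraries as independent.

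Sfmbt2 differed most, with EXE above EPI by 4.87 ± 0.35 (SE) log2 units (adjusted p = 2.23e-05, limma). EPI controls listed 0.0521 and 0.270 FPKM and knockouts 0.231 and 0.240 FPKM. VE controls measured 4.80 and 13.3 FPKM and knockouts 9.41 and 11.8 FPKM. In EXE the control measured 32.1 FPKM and the knockouts 41.0 and 31.2 FPKM. The order EPI, VE, EXE held without overlap, and each of its steps passed: EPI minus VE was -3.10 ± 0.31 (SE) and EXE minus VE 1.77 ± 0.35 (SE) log2 units (adjusted p = 5.29e-05 and 0.00488, limma). An annotated cluster of 119 microRNA models overlaps Sfmbt2, and how the authors' counting treated reads there is not given in the sources used here.

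Gab1 was low in EPI, with controls at 0.603 and 0.504 FPKM and knockouts at 0.857 and 2.12 FPKM. VE controls measured 7.66 and 16.9 FPKM and knockouts 15.7 and 21.7 FPKM. The EXE control measured 21.4 FPKM and the EXE knockouts 28.0 and 16.5 FPKM. Both extraembryonic lineages stood above EPI, by 3.54 ± 0.36 (SE) log2 units in EXE, and EPI minus VE was -3.01 ± 0.32 (SE) (adjusted p = 0.000142 and 8.38e-05, limma). The difference between EXE and VE was 0.53 ± 0.36 (SE) log2 units and did not pass (adjusted p = 0.356, limma; 95% interval -0.28 to 1.34). The order of genotypes seen in L2C was not seen in these libraries, where the knockout difference in EXE was 0.01 log2 units with a 95% interval from -1.25 to 1.27.

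Slc38a4 and Rbms1 shared a pattern of EXE above both other lineages. Slc38a4 measured 39.3 FPKM in the EXE control and 45.2 and 63.4 FPKM in the EXE knockouts. It measured 3.12 and 8.86 FPKM in control and 2.96 and 11.4 FPKM in knockout EPI, and 1.76 and 4.45 FPKM in control and 4.13 and 1.92 FPKM in knockout VE. Rbms1 measured 54.1 FPKM in the EXE control and 53.3 and 80.5 FPKM in the EXE knockouts, against 3.21 to 12.996 FPKM in the 8 EPI and VE libraries. EXE exceeded EPI by 2.81 ± 0.50 (SE) log2 units for Slc38a4 and by 2.66 ± 0.36 (SE) for Rbms1 (adjusted p = 0.00362 and 0.000694, limma). Neither gene passed between EPI and VE, where the adjusted p from limma was 0.199 and 0.111. Slc38a4 is listed among the genes with lasting extraembryonic bias and Rbms1 among those with a bias in preimplantation embryos, and their levels followed the same order here.

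Smoc1 was higher in both extraembryonic lineages, Bbx and Epas1 were highest in VE, and Enc1 was highest in EPI. Smoc1 measured 0.870 and 0.645 FPKM in control EPI, 4.09 and 11.6 FPKM in control VE and 4.94 FPKM in control EXE. Its knockouts measured 2.01 and 1.08 FPKM in EPI, 7.27 and 8.07 FPKM in VE and 6.84 and 4.72 FPKM in EXE. EPI was lowest, with EPI minus VE at -1.99 ± 0.32 (SE) and EXE minus EPI at 1.59 ± 0.36 (SE) log2 units (adjusted p = 0.00102 and 0.0122, limma). Epas1 was at most 0.440 FPKM in EPI and EXE and between 0.688 and 3.74 FPKM in VE, which passed against both (adjusted p = 0.00319 and 0.0112, limma). Epas1 entered the fit through VE libraries alone. Its calls held in all alternative fits, no filter among them, with an adjusted p from limma of at most 0.0262 and 0.0487. Enc1 was between 6.94 and 15.9 FPKM in EPI, between 0.832 and 3.34 FPKM in VE and between 2.55 and 3.85 FPKM in EXE. Enc1 was the 1 gene of the 9 that was called higher in EPI than in VE, by 2.12 ± 0.38 (SE) log2 units (adjusted p = 0.00188, limma). Its difference from EXE, -1.48 log2 units in EXE (adjusted p = 0.0373, limma), was lost without either replicate 1 of EPI or either EXE knockout, with an adjusted p of up to 0.108. It was also lost with no filter (adjusted p = 0.113, limma), with a pseudocount of 0.1 (0.0675) and with the replicate block (0.0983). Bbx was between 9.22 and 20.2 FPKM in VE, between 4.501 and 8.69 FPKM in EPI and between 4.79 and 6.33 FPKM in EXE. Its differences from VE were -1.01 ± 0.31 (SE) in EPI and -1.14 ± 0.35 (SE) in EXE (adjusted p = 0.0285 and 0.0423, limma), and each was lost without single VE or other libraries, with an adjusted p of up to 0.0999 and 0.130, and with no filter (adjusted p = 0.0934 and 0.102). The difference from EXE was also lost with TPM scaling and with the replicate block (adjusted p = 0.0572 and 0.0819, limma).

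Jade1 was expressed in all 3 lineages. EPI controls measured 5.70 and 4.39 FPKM and knockouts 6.81 and 6.62 FPKM. VE controls measured 7.64 and 15.8 FPKM and knockouts 18.3 and 36.2 FPKM, and EXE held 8.87 FPKM in the control and 20.5 and 7.73 FPKM in the knockouts. EPI minus VE was -1.40 log2 units (adjusted p = 0.0136, limma), a call lost without VE control 2 or VE knockout 2 (adjusted p = 0.0549 and 0.0612) and with no filter (adjusted p = 0.0731). Its knockout difference in VE, 1.15 ± 0.52 (SE) log2 units, was the largest of the 9 genes in any lineage and had an unadjusted p of 0.0518 and an adjusted p of 1 in limma. Its 95% interval ran from -0.01 to 2.31.

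**Figure D3:**
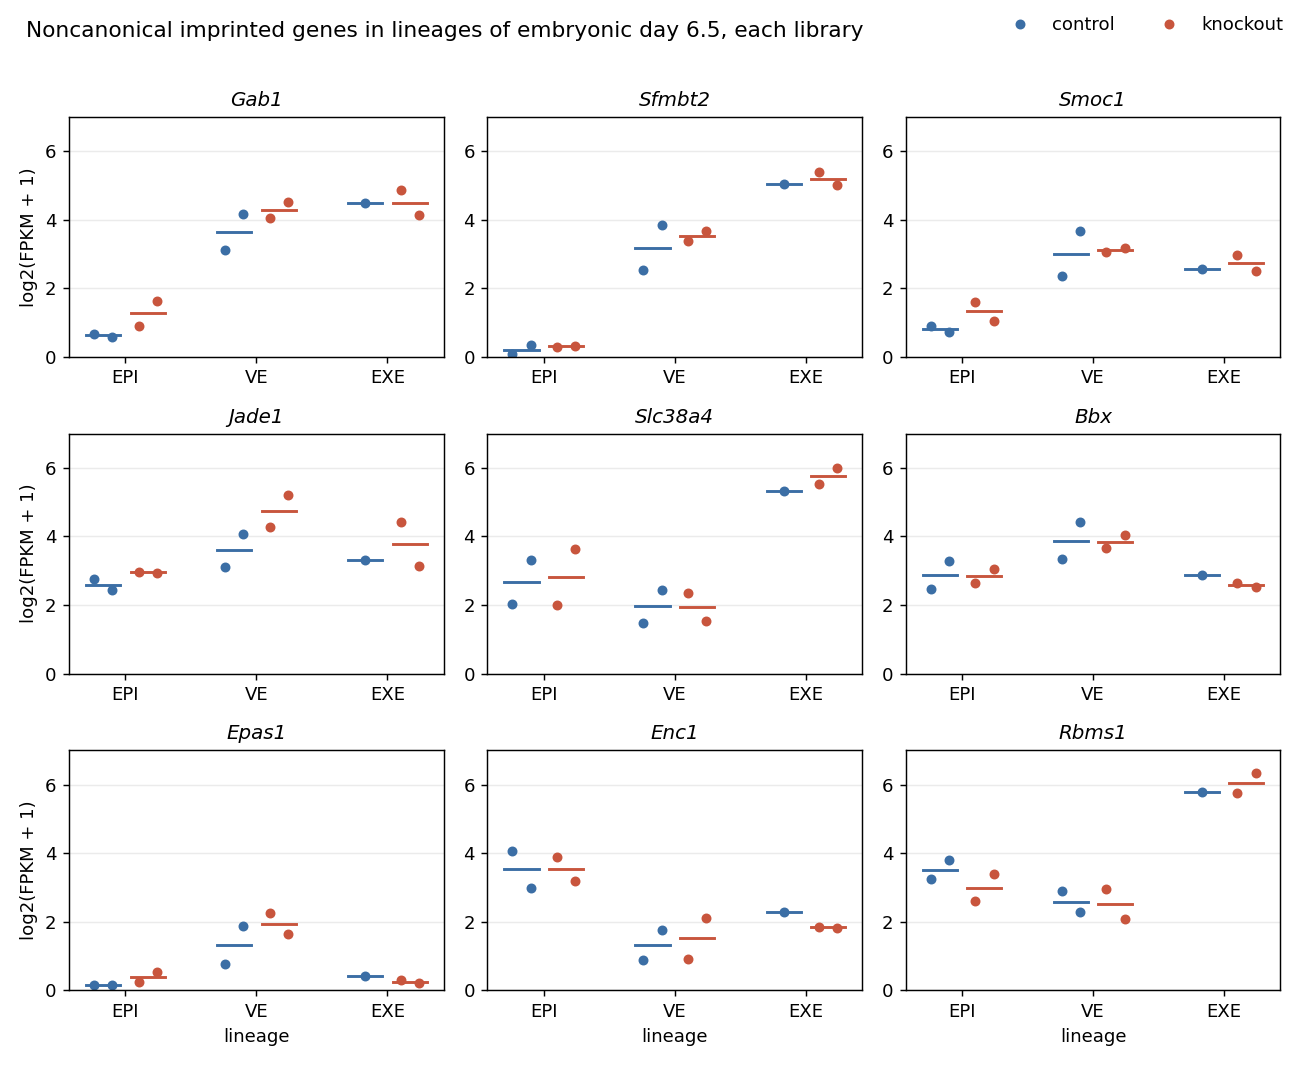
Level of each gene in every poly(A) library as log2(FPKM + 1), by lineage of embryonic day 6.5 (EPI, VE, EXE); points are libraries, short lines are group means, controls are blue and knockouts red, and EXE has 1 control. Sfmbt2, Slc38a4 and Rbms1 are highest in EXE, Enc1 in EPI, and Epas1 in VE.

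No knockout effect was called for the 9 genes in these lineages. In EPI and EXE 0% and in VE 0.00719% of all 13914 genes passed, with 469, 251 and 248 genes at an unadjusted p under 0.05 in limma, none of them a member. The differences of the 9 genes ran from -0.52 to 1.15 log2 units with SE from 0.379 to 0.779. These intervals are wide: for Slc38a4 in EXE, where 1 control is assumed to vary like the other groups, the interval was -1.31 to 2.19 log2 units. Leaving out VE control 1 moved the VE difference of Jade1 to 0.67, that of Gab1 from 0.64 to 0.12 and that of Epas1 from 0.63 to 0.07 log2 units. That library was the lowest of the 4 VE libraries for 8 of the 9 genes, and for 34.1% of all genes tested. It also held Y-linked transcripts, as did EPI and EXE control 1 and knockout 2 of each lineage (6 libraries with a summed level of 25.9 to 68.0 FPKM, and 0 in the other 5). The part of embryo sex and of this library in the VE values was not tested. Decidual or uterine genes summed to 3.69 to 24.3 FPKM in knockout VE and to 1.28 to 1.82 FPKM in control VE, and their part was not tested either.

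**Figure D4:**
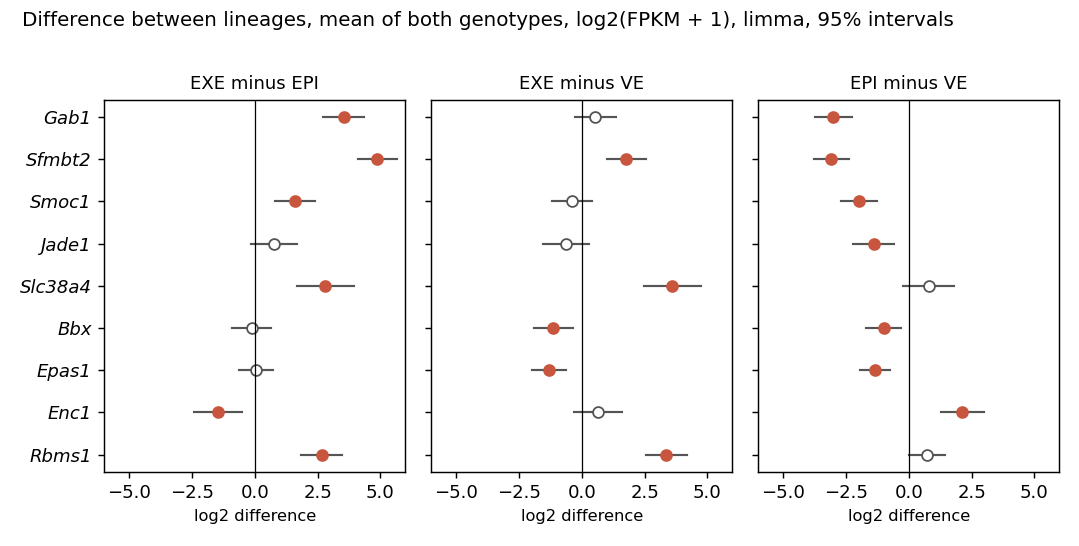
Difference between lineages on the log2(FPKM + 1) scale, averaged over both genotypes, for each gene; circles are limma estimates, bars 95% intervals, and filled circles passed at an adjusted p of 0.05. Sfmbt2, Slc38a4 and Rbms1 lie to the right of 0 in both EXE panels, and Enc1 lies to the right of 0 in the EPI against VE panel.

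EXE libraries also held epiblast markers to unequal degrees. All 6 markers reached 1 FPKM in the EXE control and in knockout 2, and 1 of 6 in knockout 1. In knockout 1 the sum was still 394.8 FPKM, so the sum alone does not show how much epiblast RNA was present. The 6 epiblast markers summed to 394.8 and 512.5 FPKM in knockout and 497.5 FPKM in control EXE, mostly through Utf1 (394.1 to 482.5 FPKM), against 1108 to 1639 FPKM in EPI. The 6 EXE markers summed to at least 424.7 FPKM in EXE and at most 28.6 FPKM elsewhere. The part of epiblast RNA in the EXE values was not tested. Xist, an X-linked transcript whose maternal copy is also silenced through H3K27me3, was at most 0.0370 FPKM until E2C. In L2C it was listed at 0.123 and 0.542 FPKM in controls and at 0.0365, 0.202 and 0.00422 FPKM in knockouts, and the groups overlapped.

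The courses of members across the early stages were set against those of all genes tested. By Pearson correlation of log2(FPKM + 1) over the 26 total RNA libraries and 15184 genes, Jade1 was most like Papolb (r = 0.991), Epas1 most like Mfsd5 (r = 0.972), Enc1 most like Shc1 (r = 0.945) and Bbx most like Ctnnd1 (r = 0.934). These points share stages and genotypes, so the values describe a course and carry no p. For none of Gab1, Jade1, Bbx, Epas1 and Enc1, the members that reached 1 FPKM often enough to be compared, was another member among the 3 most similar genes. The top 3 of 15184 genes cannot show how alike members were to each other, and correlations between members are not given. Overlapping gene models touch a pair of them: the antisense model Gm31105 shares 4.29% of the exonic 50-base words of Gab1, and Gm31266 shares 2.23% of those of Jade1. Both were listed at 0 in every total RNA library and at most at 0.692 and 0.161 FPKM in the poly(A) libraries.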

How the data were processed

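Total RNA (stranded, 26 libraries) and poly(A) (11 libraries) tables were used as the authors deposited them, in FPKM. Per the submitters' processing notes, reads went through Trim Galore 0.6.6, STAR 2.7.9 and StringTie 2.1.7 on mm10. Per the file headers, the deposited column of EPI control 1 lists 1 gene, Gm24888, at -1e-06. It was treated as 0, and all other values of that library entered as FPKM. At most 13.6% of low values per library were whole multiples of 1 read (within 0.05), so depth is unknown.

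Groups and numbers came from sample titles. Log2(FPKM + 1) was fitted in R 4.3.3 by limma 3.58.1 (linear models, moderated with an intensity trend), keeping genes at 1 FPKM or more in at least 2 libraries of the fit, with Benjamini-Hochberg adjustment over all genes and a threshold of 0.05. Each early stage was fitted alone, consecutive stages in pairs, and all 11 poly(A) libraries together. All 9 members were named, as were each member's neighbours, its 3 most correlated genes (of which 1 is printed), and regulators that passed without overlap (those printed were picked among them). A few results are not reported here. Members and lists were chosen with earlier results of these data known. Alternatives were a pseudocount of 0.1, no filter, TPM scaling, a minimum mean of 5 FPKM, median centring, quantile normalization, no trend, 1 fit of 26 libraries, a replicate block and leaving out each library. Between lineages, the replicate block joined libraries of the same genotype and number. The fits were tested on simulated data. Positions are from GENCODE M21, which held 55141 of 55401 identifiers. Python 3.11.15, pandas 2.3.3 and matplotlib 3.10.9 made tables and plots.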

Additional observations from a re-analysis of the deposited data

Results flagged for a closer look

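The knockout effect on 2 genes differed between E2C and L2C by the test of the difference itself (limma interaction contrast, Benjamini-Hochberg adjustment over 14051 genes). For Gab1 the effect was lower in L2C by -1.30 ± 0.30 (SE) log2 units (adjusted p = 0.0117), and it passed in 16 of 18 alternative fits, not with a pseudocount of 0.1 (adjusted p = 0.0854) or without L2C control 2 (adjusted p = 0.0551). For Jade1 the effect was higher in L2C by 1.57 ± 0.48 (SE) log2 units (adjusted p = 0.0444), and it passed in 5 of 19 alternative fits. Gab1 entered this test through its L2C libraries alone, and its adjusted p from limma was 0.0321 without the filter. Of all genes, 16.7% passed this test. No group had the 4 or more libraries that a check for single outlying libraries needs.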

How the results depend on the processing

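Group sizes of 1 to 3 libraries and unknown depth limit all calls, and low genes rest on the filter. Of 486 alternative values of the 38 knockout differences, 469 kept their direction where called and their side of the threshold, 7 lost the call and 10 gained it, and no called value changed sign. No embryonic day 6.5 difference was called in any fit (adjusted p of at least 0.446, limma), so those values had no call to lose. All lost and gained calls were at early stages, and Bbx in FGO lost its call in 4 of 11 values. Fits that took a gene below the filter gave no value and are not counted. Of 19 counts of members that passed, 10 did not move by over 1.5 times. With no filter the count was 0 instead of 1 in FGO, MII and L1C, 1 instead of 0 from MII to L1C and 1 instead of 2 from L1C to E2C. With a mean of at least 5 FPKM it was 0 in FGO, MII, L1C and from L1C to E2C and 1 instead of 3 from E2C to L2C, since fewer genes were tested. The single fit of 26 libraries gave 2 instead of 0 in E2C and 3 instead of 1 in L2C. In L2C TPM scaling, median centring, quantile normalization and no trend gave 2 instead of 1. Median centring gave 1 from MII to L1C, and TPM scaling gave 1 from L1C to E2C. For the change of the knockout effect from E2C to L2C, the count of 2 became 0 with a pseudocount of 0.1 and 1 with no filter, TPM scaling, a minimum mean of 5 FPKM, median centring, no trend or the replicate block. Except where fewer genes were tested, the cause was not tested.

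Leaving out single libraries gave 0 to 1 in FGO, MII and L1C, where Bbx fell below the filter without either control, 1 to 2 in L2C (2 without knockout 1, with Jade1 at an adjusted p of 0.0200), 1 to 2 from L1C to E2C and 0 to 2 for the change from E2C to L2C. Bbx in FGO also lost the call without knockout 2 or 3 (limma adjusted p = 0.0519 and 0.0689), and in MII without knockout 2 (0.0508). The EXE control could not be left out. Replicate numbers were not shown to pair libraries: libraries with the same number had deviations that correlated between -0.092 and 0.167 at the early stages, and at 0.611 in EPI and 0.457 in VE, where 2 pairs do not settle it. Under the replicate block the count was 0 in FGO (Bbx -0.72 log2 units, limma adjusted p = 0.119) and 0 from L1C to E2C. The block did not add a call in EPI or VE.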
